A study of Mus musculus with 12 samples.

Results

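Mitochondrial protein import genes are described here across 4 groups of mouse macrophages. The set holds every protein-coding gene whose symbol starts with Tomm or Timm, together with Pam16, Dnajc19, Grpel1, Hspa9, Hspd1, Hspe1, Pmpca, Pmpcb, Samm50, Chchd4 and Gfer, where the gene had 10 or more counts in 3 or more of the 12 libraries. The naming rule found 37 symbols and 34 of them passed the count minimum, of 13909 genes that passed it and 46078 gene identifiers in all. The minimum removed Tomm6 with 27 counts over the 12 libraries, Tomm20l with 11 and Timm8a2 with 1. Exons of Gm21981 on the same strand overlap 76.0% of the Tomm6 exons, so reads there may not have been assigned to Tomm6. Exons of Tomm6os, on the opposite strand, overlap 19.4% of the Tomm6 exons, and Tomm6os held 4014 counts. The strand setting of the counting is not given, so reads of Tomm6 and Tomm6os may also be mixed. All 34 members were tested.

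Most mitochondrial proteins are made in the cytosol and enter the organelle through multi-subunit gates. The TOM complex is the general entry pore of the outer membrane. From there SAM inserts barrel proteins into the outer membrane, small TIM chaperones carry membrane proteins across the intermembrane space, TIM22 inserts metabolite carriers into the inner membrane, and TIM23 with its ATP-driven motor pulls presequence proteins into the matrix, where a peptidase removes the presequence and chaperonins fold the product. Macrophages that meet lipopolysaccharide (LPS) are known to remodel mitochondrial metabolism.

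The cells were macrophages grown from bone marrow for 7 days in supernatant of L929 cells, which supplies macrophage growth factors, and the donors were male C57BL/6 mice. There were 3 libraries in each of 4 groups. By the titles, Dicer KO LPS and Dicer KO vehicle cells came from LysMcre/+;Dicerfl/fl;ApoE-/- mice, and control LPS and control vehicle cells from LysMcre/+;Dicer+/+;ApoE-/- mice. LPS, a bacterial cell wall component, was given at 100 ng/ul for 6 h as the labels write it, and vehicle was phosphate-buffered saline for the same time. By the labels every group was ApoE-/- and had diluted ethanol overnight beforehand. LysMcre is a Cre recombinase in the Lyz2 locus, active in myeloid cells, and Dicer is the enzyme that cuts microRNA precursors. One label field calls the controls wildtype, and control file names mark the LysM locus as wildtype although the titles give LysMcre/+. The labels do not state that replicates were separate mice or cultures, so the p-values here reflect only the scatter among these libraries, which may be technical.

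Each library held 16172600 to 18886948 counts assigned to genes. Dicer1 averaged 15.5 CPM in Dicer KO LPS against 49.4 CPM in control LPS, and 19.7 CPM in Dicer KO vehicle against 43.7 CPM in control vehicle. Lyz2 averaged 18.9 CPM in Dicer KO LPS against 4060 CPM in control LPS, and 14.1 CPM in Dicer KO vehicle against 5714 CPM in control vehicle. The genotypes thus differed in Lyz2 as well as in Dicer1, although the titles give LysMcre/+ for both. Whether the LysM locus also differs is not settled by the labels, and its part in the results was not tested. Apoe still had counts in every group, averaging 1.20 CPM in Dicer KO LPS, 4.24 in control LPS, 5.61 in Dicer KO vehicle and 17.9 in control vehicle. It was called lower in Dicer KO than in control under LPS (-1.82, edgeR adjusted p = 9.03e-07) and vehicle (-1.67, 3.49e-09); where in the gene these reads lie is not shown by gene counts. All 10 macrophage markers had counts, and their summed level was 9412 to 9603 CPM in Dicer KO LPS, 12642 to 13202 CPM in control LPS, 7197 to 8041 CPM in Dicer KO vehicle and 12935 to 14169 CPM in control vehicle, Lyz2 included. Lyz2 alone held 3891 to 4281 CPM of the sum in control LPS and 5370 to 6041 CPM in control vehicle. In Dicer KO it held 16.2 to 20.6 CPM (LPS) and 12.7 to 15.6 CPM (vehicle), so the sums differ between genotypes mainly through Lyz2. The 10 neutrophil markers summed to 158 to 180 CPM in Dicer KO LPS, 148 to 161 in control LPS, 94.3 to 125 in Dicer KO vehicle and 101 to 135 in control vehicle. Sums of the 7 dendritic cell markers were 17.1 to 18.6 CPM in Dicer KO LPS, 7.69 to 9.83 in control LPS, 3.86 to 6.28 in Dicer KO vehicle and 2.95 to 3.51 in control vehicle. Those of the 7 stromal markers, with Lum at 0, were 33.8 to 37.3 CPM in Dicer KO LPS, 22.9 to 25.1 in control LPS, 0.721 to 1.26 in Dicer KO vehicle and 0.627 to 1.21 in control vehicle; Pdgfrb, the 1 stromal marker that passed the filter, made up 34.5 CPM of the mean in Dicer KO LPS and 23.2 in control LPS. B cell, T and NK cell, mast cell and basophil, and erythroid markers summed to at most 5.06 CPM in any library, with Ncr1, Fcer1a, Hbb-bs, Hba-a1 and Hba-a2 at 0. The part of these markers in the results was not tested. In bulk RNA, fewer cells of a type and less RNA per cell cannot be told apart. Replicate 2 of Dicer KO vehicle and replicate 3 of control vehicle differed more in their counts from their own group than other libraries did (chi-square per degree of freedom of 7.87 and 11.1, and of 9.19 and 13.2, against 1.30 to 4.78 for the other pairs).

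CPM here is the read count divided by the library size in megareads after TMM scaling (a trimmed mean of gene-wise ratios), which sets the typical gene at no change. The scaling factors ranged between 0.707 and 1.31. Scaling to library totals instead moves the median log2 change of all genes by -0.13 for Dicer KO against control in vehicle, -0.35 in LPS, -0.52 for LPS against vehicle in control and -0.75 in Dicer KO. The 34 members summed to 1094 ± 31.4 CPM in Dicer KO LPS, 1095 ± 31.3 in control LPS, 1102 ± 34.7 in Dicer KO vehicle and 1020 ± 40.3 in control vehicle (SD, n = 3 each). On library totals they made up 777 ± 19.2 CPM in Dicer KO LPS, 992 ± 17.9 in control LPS, 1313 ± 49.0 in Dicer KO vehicle and 1327 ± 43.0 CPM in control vehicle. Fold changes below are relative to the typical gene, and for called members a direction that differs on library totals is given beside the value. Uncalled members also change sign on library totals, 10 and 5 of them for Dicer KO against control (vehicle, LPS), 5 for LPS against vehicle in Dicer KO, 5 in control and 7 for the difference of responses.

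Promoter stretches are shown for 5 members, each picked with a motif match in its window, so they do not show how often changed members carry a motif. Of the 34 members, 30 have a promoter window (250 bases before to 50 after the start) in RefSeq on build GRCm38.p6. Capitals mark a match to a heat shock element (the triplets GAA, TTC and GAA, each followed by 2 free bases before the next, bound by heat shock factors), to the core of the GABP site (CCGGAAGT, bound by ETS factors), or to an interferon-stimulated response element (GAAA, 2 free bases and GAAA). Both strands were searched, and a site on the other strand appears as its reverse complement. The first 2 lines carry the heat shock element, the third carries the interferon element followed by the GABP core, and the last 2 carry the GABP core.
Hspe1, chr1:55088053-55088082, plus strand: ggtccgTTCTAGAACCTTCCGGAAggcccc
Timm9, chr12:71136856-71136885, minus strand: attaggctTTCTAGAAATTTCgacagattc
Tomm70a, chr16:57121564-57121663, plus strand: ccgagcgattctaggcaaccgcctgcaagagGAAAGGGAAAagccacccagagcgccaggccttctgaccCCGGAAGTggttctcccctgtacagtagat
Timm23, chr14:32201922-32201951, minus strand: ctcgcgcttcccACTTCCGGgccgcacaca
Pmpcb, chr5:21737130-21737159, plus strand: cctggagtcatgacCCGGAAGTacatctcc

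The heat shock element was found in the windows of 3 of the 30 members, Hspd1, Hspe1 and Timm9, and in 0.603% of 32851 promoter windows. The Hspe1 stretch also lies in the first exon of Hspd1, the neighbour transcribed in the opposite direction, so both windows hold the same site. Annotated exons also overlap the stretches of Timm9 (an exon of 2700049A03Rik), Timm23 (of Parg) and Pmpcb (of Pmpcb itself). The GABP core was found in 7 members, Pmpcb, Timm10, Timm10b, Timm23, Timm29, Timmdc1 and Tomm70a, and in 3.89% of windows. Tomm70a was the only member with the interferon-stimulated response element, which 3.44% of windows hold. The NRF1 site (GCGCA, 1 free base and GCGC) was in 5 members and 4.60% of windows, the E-box (CACGTG) in 5 members and 7.15%, and the amino acid response element (TGATGCAA) in 0 members and 0.895%. A match describes letters only, and binding was not measured.

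Per length of exon, Tomm22, a central TOM receptor subunit, had the highest mean level of the set over the 12 libraries, at 37.9 CPM per kb. Hspa9, the matrix Hsp70 of the import motor, followed at 28.7, then the small TOM subunit Tomm7 at 27.3 and the chaperonin Hspd1 at 26.0 CPM per kb. The lowest were Timm8a1 at 0.703 and Timm9 at 0.552 CPM per kb, both small TIM chaperones. Within roles, Timm23 was highest (15.9 CPM per kb) and Timm21 lowest (1.62) of the TIM23 translocase, and Hspa9 highest and Pam16 lowest (2.23) of the motor. Tomm22 was highest and the pore gene Tomm40 lowest (4.92) of the TOM core, and Timm8b highest (22.6) of the small TIMs. Length here is that of the exons of all annotated transcripts merged. For Tomm40 it was 4513 bases, against 2766 in the longest transcript, so ranks may differ with another length.

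**Figure D1:**
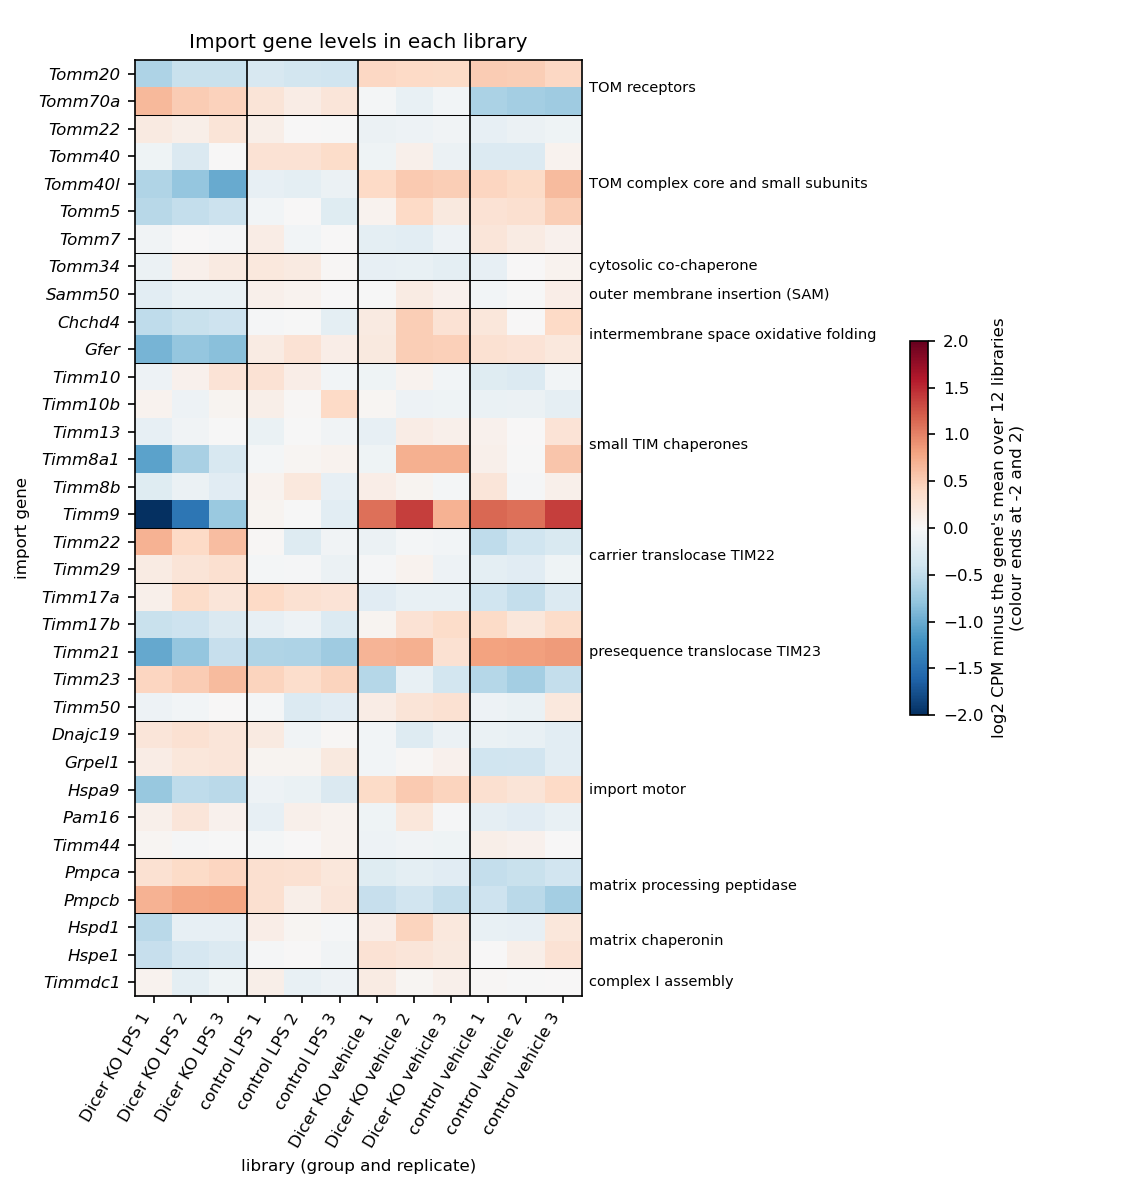
Level of each of the 34 import genes (down, grouped by role) in each of the 12 libraries (across, by group and replicate), as the difference of its log2 CPM from its own mean over the libraries, on the TMM scale. Hspa9, Tomm20, Timm21 and Timm9 are low in both LPS groups, and Pmpcb, Timm23 and Tomm70a are high in them, although the Dicer KO response of Tomm70a turns to -0.13 on library totals.

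A gene was called at an edgeR adjusted p under 0.05, with the Benjamini-Hochberg adjustment over all 13837 genes tested. For Dicer KO against control in vehicle, 8 of 34 members were called, 6 higher and 2 lower, where 46.2% of all genes tested were called (25.0% higher, 21.2% lower); on library totals the split was 2 higher and 7 lower (16.1 and 33.1% of all genes). That count was 5 without Dicer KO vehicle replicate 2 or without control vehicle replicate 2, and 13 without control vehicle replicate 3. For Dicer KO against control in LPS, 15 members were called, 6 higher and 9 lower, against 55.8% of all genes (28.8% higher, 27.0% lower), and library totals gave 2 higher and 27 lower (13.6 and 55.1% of all genes).

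For LPS against vehicle, 26 members were called in Dicer KO, 11 higher and 15 lower, against 80.1% of all genes (37.4% higher, 42.7% lower), and library totals gave 1 higher and 31 lower (19.1 and 69.5% of all genes). In control, 22 members were called, 12 higher and 10 lower, against 79.1% of all genes (38.0% higher, 41.1% lower), and library totals gave 5 higher and 25 lower (22.2 and 63.1% of all genes). The median member log2 change was 0.10 for Dicer KO against control in vehicle, which turns to -0.024 on library totals (all genes 0.01 and -0.12), -0.08 in LPS (all genes -0.03), -0.10 for LPS against vehicle in Dicer KO (all genes -0.10) and -0.01 in control (all genes -0.06). A called change of at least 2-fold was seen in 0, 2, 7 and 2 members in those 4 comparisons, where 6.94, 12.7, 42.2 and 37.9% of all genes had one. The groups compared did not overlap for 11 members in vehicle and 19 in LPS (Dicer KO against control, 54.2 and 63.3% of all genes), and for 28 members in Dicer KO and 21 in control (LPS against vehicle, 82.2 and 80.2% of all genes).

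The difference of the 2 LPS responses, Dicer KO minus control, was called for 13 members, 2 higher and 11 lower, against 33.7% of all genes (14.9% higher, 18.8% lower). Library totals gave 0 higher and 19 lower (7.21 and 37.1% of all genes). The median difference was -0.16 for the members and -0.04 for all genes. Without control vehicle replicate 1 the count was 8. Pam16, a regulator of the import motor, and Timmdc1, which takes part in complex I assembly, were called in none of the 5 comparisons, and Tomm70a was called in every one.

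**Figure D2:**
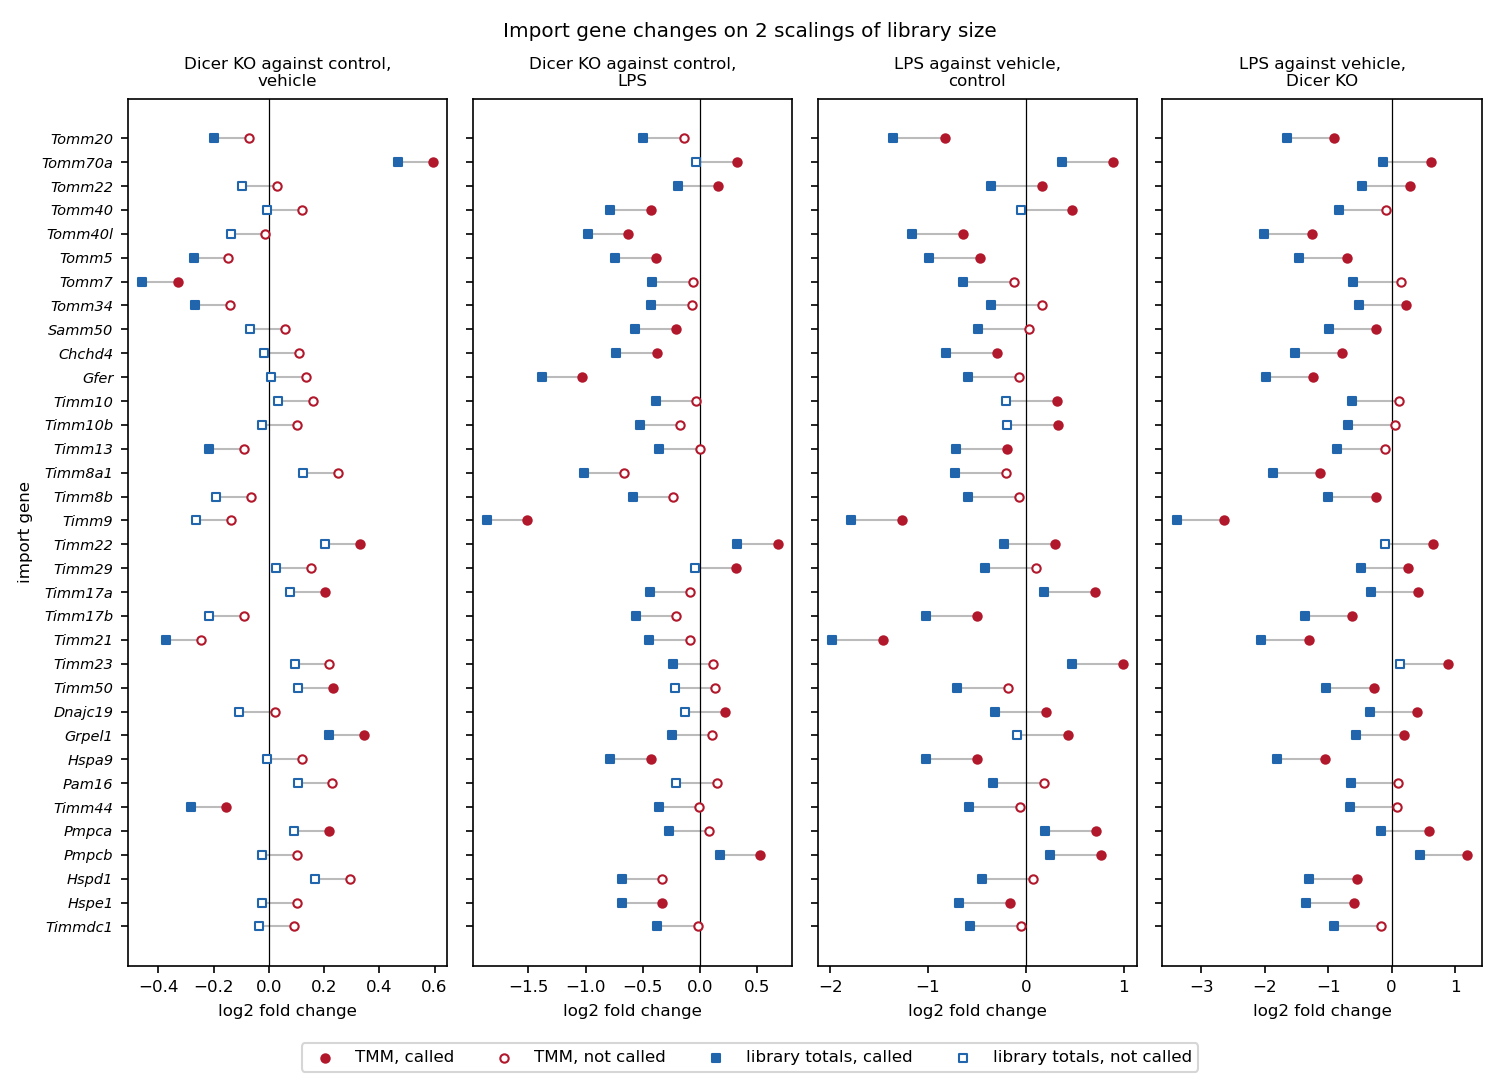
Log2 fold change (across) of each of the 34 import genes (down) in the 4 pairwise comparisons, under TMM scaling and under library totals. Members called on both scalings in the same direction number 4 and 11 for Dicer KO against control (vehicle, LPS), 16 for LPS against vehicle in Dicer KO and 15 in control; values under library totals sit to the left.

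The TOM receptors Tomm70a and Tomm20 moved in opposite directions with LPS in control cells on both scalings. Tomm70a (chr16:57121703-57156705, plus strand, GRCm38), the receptor that takes carrier proteins from cytosolic chaperones, had 139, 126 and 122 CPM in Dicer KO LPS, 107, 97.9 and 105 CPM in control LPS, 86.6, 80.0 and 85.3 CPM in Dicer KO vehicle and 57.1, 55.4 and 54.4 CPM in control vehicle. No 2 groups overlapped, and Dicer KO was above control under both treatments. It was 1.51-fold higher in Dicer KO than in control in vehicle (log2 0.59 ± 0.06 SE, edgeR adjusted p = 1.63e-07), also on library totals (0.47). In LPS the difference was 0.32 ± 0.06 (edgeR adjusted p = 9.38e-05), which turns to -0.03 on library totals. LPS raised it by 0.62 ± 0.06 in Dicer KO, which turns to -0.13 on library totals, and by 0.89 ± 0.06 in control, where library totals give 0.37. The response was smaller in Dicer KO (difference -0.27 ± 0.08, edgeR adjusted p = 0.0129).

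Tomm20, the receptor that recognises presequences, had 27.5, 30.9 and 31.0 CPM in Dicer KO LPS, 34, 32.8 and 32.1 CPM in control LPS, 56.4, 55.9 and 55.1 CPM in Dicer KO vehicle and 59.9, 59.6 and 56.2 CPM in control vehicle. All 6 LPS libraries were below all 6 vehicle libraries. The log2 change with LPS was -0.90 ± 0.06 in Dicer KO (edgeR adjusted p = 5.25e-11) and -0.83 ± 0.06 in control (1.14e-10), and the difference of the 2 responses was -0.07 ± 0.08 (adjusted p = 0.532). Neither Dicer KO against control difference passed the test.

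Of the 5 TOM core and small subunits, 1 was higher (Tomm22, which turns to -0.20 on library totals) and 3 lower in Dicer KO LPS than in control LPS, where 28.8% of all genes were higher and 27.0% lower. Tomm40 forms the channel itself. It had 20.7, 18.0 and 22.0 CPM in Dicer KO LPS, 26.9, 26.9 and 28.2 CPM in control LPS, 20.7, 23.4 and 20.3 CPM in Dicer KO vehicle and 18.1, 18.3 and 22.9 CPM in control vehicle. Control LPS stood above every other group and the other 3 overlapped. In control, LPS raised Tomm40 by 0.47 ± 0.09 (edgeR adjusted p = 0.000156), which turns to -0.05 on library totals, while in Dicer KO the change was -0.08 ± 0.10 (adjusted p = 0.445). The 2 responses differed by -0.55 ± 0.14 (adjusted p = 0.00414), and Dicer KO LPS was below control LPS with a difference of -0.43 ± 0.10 (adjusted p = 0.00108).

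Its paralog Tomm40l showed 18.5, 16.4 and 14.0 CPM in Dicer KO LPS, 25.2, 24.6 and 25.9 CPM in control LPS, 37.0, 40.4 and 39.5 CPM in Dicer KO vehicle and 37.8, 36.7 and 43.4 CPM in control vehicle. Both LPS groups were below both vehicle groups, with Dicer KO LPS lowest. LPS changed it by -1.26 ± 0.09 in Dicer KO and -0.64 ± 0.08 in control (edgeR adjusted p = 1.81e-10 and 8.28e-07), and the responses differed by -0.62 ± 0.12 (adjusted p = 0.000681). Exons of Nr1i3, on the opposite strand, overlap 64.3% of the Tomm40l exons, and Nr1i3 averaged 12.7, 18.5, 31.4 and 29.0 CPM in Dicer KO LPS, control LPS, Dicer KO vehicle and control vehicle. The strand setting of the counting is not given, so reads of the 2 genes may be mixed. Per length, Tomm40 averaged 4.49 and Tomm40l 3.17 CPM per kb in Dicer KO LPS, against 4.38 and 7.65 CPM per kb in control vehicle.

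Tomm22 had 70.8, 67.7 and 74.7 CPM in Dicer KO LPS, 67.4, 62.3 and 61.8 CPM in control LPS, 57.2, 58.2 and 59.4 CPM in Dicer KO vehicle and 55.5, 57.2 and 58.5 CPM in control vehicle. The LPS libraries were above the vehicle libraries on this scale. It was higher with LPS by 0.29 ± 0.05 in Dicer KO and 0.16 ± 0.05 in control, which turn to -0.46 and -0.36 on library totals. Dicer KO LPS exceeded control LPS by 0.16 ± 0.05 (edgeR adjusted p = 0.021), which turns to -0.20 on library totals. That call held in 9 of the 12 fits that each left out 1 library, with an adjusted p of 0.118 without Dicer KO LPS replicate 3.

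The small subunits Tomm5 and Tomm7 help assemble and stabilise the TOM complex. Tomm5 had 8.19, 8.64 and 8.96 CPM in Dicer KO LPS, 11.5, 12.05 and 10.2 CPM in control LPS, 12.6, 15.9 and 13.8 CPM in Dicer KO vehicle and 14.7, 15.1 and 16.9 CPM in control vehicle. It was lower in Dicer KO LPS than in control LPS (-0.39 ± 0.11, edgeR adjusted p = 0.00754) and fell with LPS in both genotypes (-0.71 ± 0.11 in Dicer KO and -0.47 ± 0.10 in control). Tomm7 had 29.3, 30.9 and 30.1 CPM in Dicer KO LPS, 34, 29.5 and 30.9 CPM in control LPS, 26.8, 26.5 and 28.5 CPM in Dicer KO vehicle and 36.1, 34.3 and 32.5 CPM in control vehicle. The Dicer KO vehicle libraries were below all others. Tomm7 was thus lower in Dicer KO vehicle than in control vehicle with a difference of -0.33 ± 0.06 (edgeR adjusted p = 0.000405, -0.46 on library totals). Neither LPS response of Tomm7 passed the test, although their difference did (0.27 ± 0.09, adjusted p = 0.0371); that call held in 4 of 12 fits, with an adjusted p of 0.115 without control LPS replicate 2, and was 0.04 and not called on library totals.

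Samm50, the core of the SAM complex that folds barrel proteins such as Tomm40 into the outer membrane, had 48.1, 50.3 and 50.5 CPM in Dicer KO LPS, 59.2, 57.9 and 55.6 CPM in control LPS, 55.2, 62.0 and 58.7 CPM in Dicer KO vehicle and 53.3, 55.2 and 60.6 CPM in control vehicle. Dicer KO LPS lay below all other groups, which overlapped. Its level was lower in Dicer KO LPS than in control LPS with a difference of -0.21 ± 0.06 (edgeR adjusted p = 0.00682) and than in Dicer KO vehicle with a difference of -0.24 ± 0.06 (0.00151). The control response was 0.03 ± 0.06 (adjusted p = 0.645), which turns to -0.49 on library totals, and the responses differed by -0.27 ± 0.09 (adjusted p = 0.0201). Without replicate 1 of control vehicle the last call was lost (adjusted p = 0.0529) and held in the other 11 fits.

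Both genes of the intermembrane space folding relay were lower in Dicer KO LPS than in control LPS. Chchd4 oxidises small cysteine-rich imports, and Gfer reoxidises Chchd4. Gfer (chr17:24693187-24696156, minus strand) had 4.36, 4.88 and 4.67 CPM in Dicer KO LPS, 9.30, 10.1 and 9.05 CPM in control LPS, 9.54, 11.69 and 11.5 CPM in Dicer KO vehicle and 10.2, 10.02 and 9.57 CPM in control vehicle. The 3 Dicer KO LPS libraries stood below the other 9, and the other groups overlapped. The change with LPS was -1.23 ± 0.12 in Dicer KO (edgeR adjusted p = 1.39e-08) and -0.07 ± 0.10 in control (adjusted p = 0.549), a difference of -1.17 ± 0.16 (adjusted p = 1.69e-05). In LPS the Dicer KO level was 0.489 of the control level (-1.03 ± 0.12, adjusted p = 9.22e-07), and each of these 3 calls held in all 12 fits that left out 1 library. A stretch of 32.3% of the longest Gfer transcript matches transcripts of Dst at 95% identity or more, so reads there may be lost or shared.

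Chchd4 had 6.46, 6.76 and 6.85 CPM in Dicer KO LPS, 9.04, 9.08 and 8.0 CPM in control LPS, 10.3, 12.9 and 11.2 CPM in Dicer KO vehicle and 10.7, 9.17 and 12.1 CPM in control vehicle. Vehicle groups overlapped each other, and Dicer KO LPS was lowest. LPS changed it by -0.78 ± 0.13 in Dicer KO (edgeR adjusted p = 1.45e-05) and -0.29 ± 0.12 in control (0.0284), with a difference of -0.49 ± 0.17 (0.0352). Without replicate 3 of control vehicle the control response had an adjusted p of 0.137, and the difference held in 4 of 12 fits, with 0.0885 without control vehicle replicate 2. Dicer KO LPS was below control LPS with a difference of -0.38 ± 0.13 (adjusted p = 0.0211; 0.0618 without control LPS replicate 2, called in 9 of 12 fits).

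Small TIM chaperones shield membrane proteins on their way across the intermembrane space, and Timm9 with Timm10 forms the main such hexamer. Timm9 (chr12:71123173-71136684, minus strand) had 1, 8 and 13 raw counts in Dicer KO LPS, 26, 27 and 23 in control LPS, 76, 83 and 57 in Dicer KO vehicle and 90, 87 and 103 in control vehicle. These are 0.0751, 0.601 and 0.979 CPM in Dicer KO LPS, 1.70, 1.63 and 1.43 CPM in control LPS, 3.54, 4.27 and 2.66 CPM in Dicer KO vehicle and 3.64, 3.54 and 4.30 CPM in control vehicle. Each LPS library was below each vehicle library, and all Dicer KO LPS libraries were below all control LPS libraries. The LPS change was -2.64 ± 0.36 in Dicer KO (edgeR adjusted p = 2.17e-06) and -1.27 ± 0.26 in control (0.000285). In LPS, Dicer KO was lower with a difference of -1.51 ± 0.42 (adjusted p = 0.00538). The responses differed by -1.37 ± 0.48 (adjusted p = 0.0353), which was 0.11 without Dicer KO LPS replicate 1 and was called in 4 of 12 fits. Dicer KO LPS replicate 1 is the library with 1 count.

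The partner Timm10 had a mean of 5.77 ± 0.761 CPM in Dicer KO LPS, 5.92 ± 0.704 in control LPS, 5.31 ± 0.315 in Dicer KO vehicle and 4.75 ± 0.380 in control vehicle (SD, n = 3 each), and Timm10b, another subunit of these chaperones found at TIM22, had 6.27 ± 0.420 CPM in Dicer KO LPS, 7.08 ± 0.987 in control LPS, 6.04 ± 0.332 in Dicer KO vehicle and 5.63 ± 0.139 in control vehicle. Both were called higher with LPS in control (0.32 ± 0.13 and 0.33 ± 0.12), which turn to -0.20 and -0.19 on library totals. The Dicer KO changes of 0.12 ± 0.14 and 0.05 ± 0.12 were not called and turn to -0.63 and -0.70 on library totals, and the difference of responses did not pass for either gene (edgeR adjusted p = 0.465 and 0.231). The 2 calls were lost without control LPS replicate 1 (adjusted p = 0.145, Timm10) and without control LPS replicate 3 (0.121, Timm10b).

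Timm8a1, whose human counterpart is mutated in a deafness-dystonia syndrome, had 6, 8 and 10 counts in Dicer KO LPS, 14, 16 and 16 in control LPS, 19, 30 and 33 in Dicer KO vehicle and 25, 23 and 33 in control vehicle. With LPS it was lower in Dicer KO (-1.12 ± 0.32, edgeR adjusted p = 0.00394), and its change in control was -0.20 ± 0.28 (adjusted p = 0.51). The difference of -0.92 ± 0.44 did not pass (adjusted p = 0.116). Its paralog Timm8b, at 10.2 ± 0.491 CPM in Dicer KO LPS, 11.99 ± 1.55 in control LPS, 12.1 ± 0.731 in Dicer KO vehicle and 12.6 ± 1.16 in control vehicle (SD, n = 3 each), was lower with LPS in Dicer KO with a difference of -0.25 ± 0.11 (adjusted p = 0.0439, called in 7 of 12 fits, 0.131 without Dicer KO vehicle replicate 1). Timm13, a partner of the Timm8 proteins, averaged 24.3 CPM in Dicer KO LPS, 24.4 in control LPS, 26.3 in Dicer KO vehicle and 27.9 in control vehicle and was called lower with LPS in control with a difference of -0.19 ± 0.09 (adjusted p = 0.0445), which was 0.202 without control vehicle replicate 3 and held in 3 of 12 fits.

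**Figure D3:**
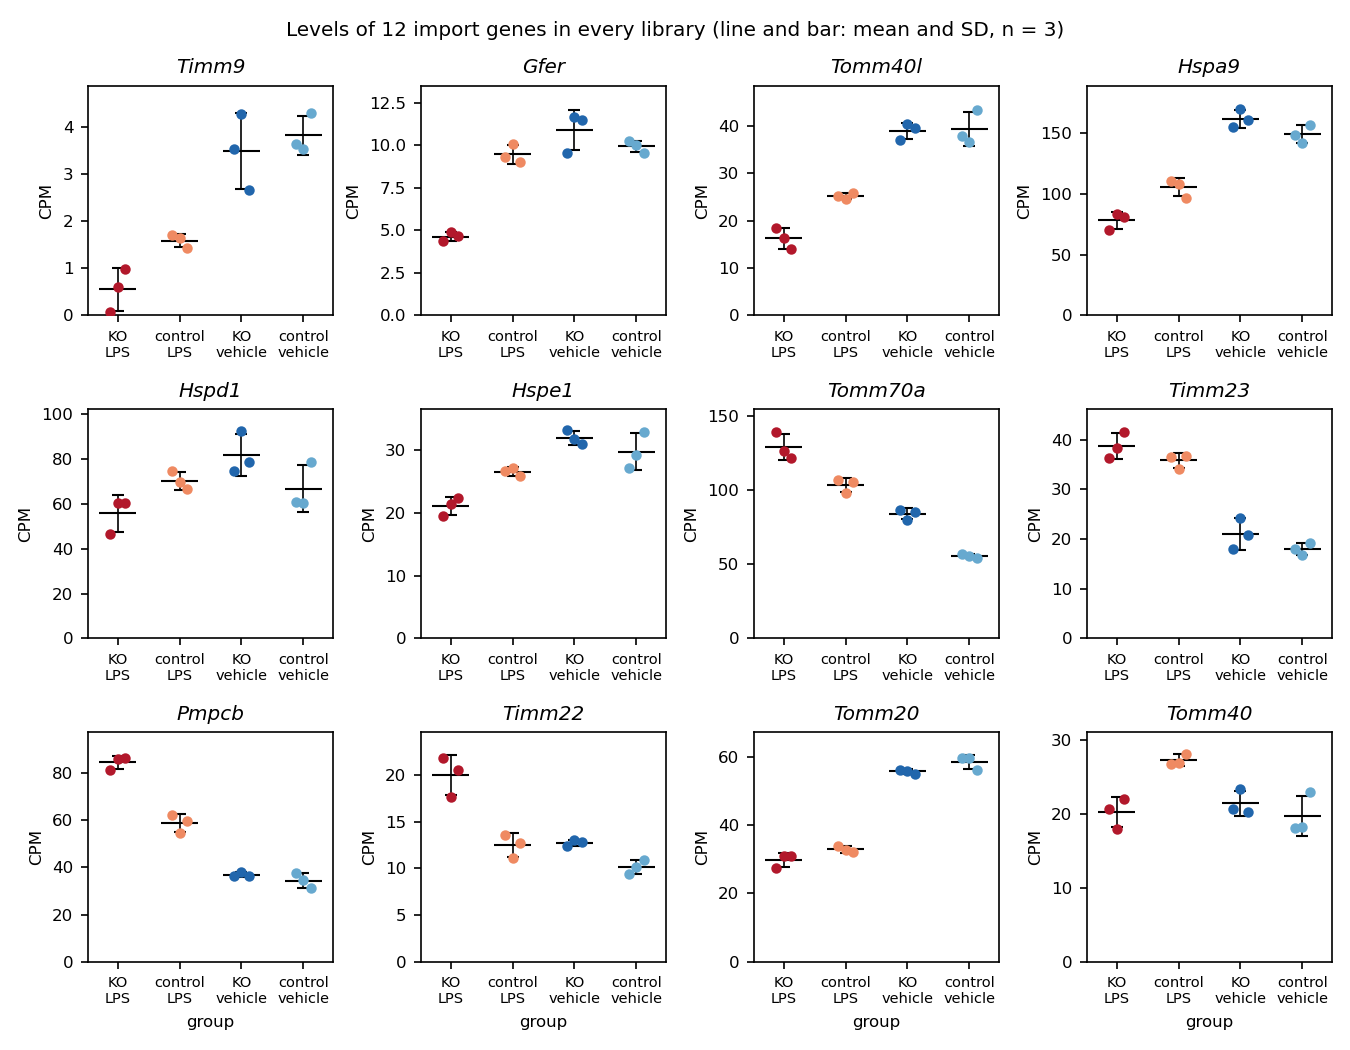
Level (CPM, TMM scale) of 12 import genes in every library, by group, with points for libraries and a line and bar for the mean and SD (n = 3). Gfer stands at 4.36 to 4.88 CPM in Dicer KO LPS and at 9.05 CPM or above elsewhere, while Pmpcb and Timm22 are highest in Dicer KO LPS, although the LPS rise of Timm22 in Dicer KO turns to -0.10 on library totals.

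Both TIM22 genes were higher in Dicer KO LPS than in control LPS, Timm22 on both scalings, while Timm29 turns to -0.04 on library totals. Timm22, the carrier insertion channel, had 21.8, 17.6 and 20.6 CPM in Dicer KO LPS, 13.6, 11.1 and 12.8 CPM in control LPS, 12.4, 13.0 and 12.9 CPM in Dicer KO vehicle and 9.43, 10.1 and 10.9 CPM in control vehicle. The Dicer KO LPS libraries were above all others and the control vehicle libraries were below all others. In LPS, Dicer KO was 1.60-fold higher (0.68 ± 0.10, edgeR adjusted p = 1.16e-05, 0.33 on library totals), and in vehicle 1.26-fold higher (0.33 ± 0.10, adjusted p = 0.00902, 0.20 and not called on library totals). LPS raised it by 0.65 ± 0.10 in Dicer KO and 0.30 ± 0.10 in control, which turn to -0.10 and -0.22 on library totals, and the responses differed by 0.35 ± 0.14 without passing (adjusted p = 0.0607). The control call was lost without control LPS replicate 1 (adjusted p = 0.055).

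Timm29, which in human cells links TIM22 to the TOM complex, had 36.4, 38.7 and 40.7 CPM in Dicer KO LPS, 31.8, 31.8 and 29.9 CPM in control LPS, 32.1, 34.3 and 30.2 CPM in Dicer KO vehicle and 28.4, 27.9 and 30.5 CPM in control vehicle. Dicer KO LPS was above the other groups, which overlapped. It exceeded control LPS by 0.31 ± 0.07 (edgeR adjusted p = 0.000799), which turns to -0.04 on library totals, and Dicer KO vehicle by 0.26 ± 0.07 (adjusted p = 0.00142), which turns to -0.49.

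Subunits of the TIM23 translocase went in opposite directions with LPS in control cells on both scalings, with Timm23 and Timm17a higher and Timm21 and Timm17b lower. Timm23, the presequence channel (chr14:32180162-32201898, minus strand), had 36.3, 38.4 and 41.5 CPM in Dicer KO LPS, 36.6, 34.1 and 36.8 CPM in control LPS, 18.0, 24.3 and 20.8 CPM in Dicer KO vehicle and 18.1, 16.8 and 19.2 CPM in control vehicle. LPS libraries were all above vehicle libraries, and genotypes overlapped under both treatments. The rise was 1.84-fold in Dicer KO (0.88 ± 0.09, edgeR adjusted p = 4.47e-08, 0.13 and not called on library totals) and 1.99-fold in control (0.99 ± 0.09, adjusted p = 8.24e-09, 0.47 on library totals). Other transcripts match 95.6% of the longest Timm23 transcript at 95% identity or more, and the copies listed in the files held 0 to 47 counts over the 12 libraries, so its counts are uncertain.

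Timm21, which couples TIM23 to TOM and to respiratory chain assembly, had 2.63, 3.15 and 3.92 CPM in Dicer KO LPS, 3.54, 3.51 and 3.29 CPM in control LPS, 8.61, 8.81 and 6.63 CPM in Dicer KO vehicle and 9.35, 9.45 and 9.65 CPM in control vehicle. Every LPS library was below every vehicle library. The log2 change was -1.31 ± 0.15 in Dicer KO (edgeR adjusted p = 2.34e-07) and -1.46 ± 0.14 in control (1.73e-08), and the genotypes did not differ past the threshold under either treatment. Of the 34 members, Timm21 had the most negative LPS change in control cells, and only Timm9 had a more negative one in Dicer KO cells.

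The paralogs Timm17a and Timm17b are alternative subunits beside the Timm23 channel. Timm17a had 23.7, 28.7 and 26.1 CPM in Dicer KO LPS, 29.2, 27.4 and 26.9 CPM in control LPS, 18.9, 19.9 and 19.9 CPM in Dicer KO vehicle and 16.8, 16.01 and 18.3 CPM in control vehicle. It was higher with LPS by 0.42 ± 0.08 in Dicer KO, which turns to -0.33 on library totals, and by 0.71 ± 0.08 in control (0.19 on library totals). The responses differed by -0.29 ± 0.11 (edgeR adjusted p = 0.0486, called in 3 of 12 fits, 0.126 without Dicer KO LPS replicate 1). In vehicle, Dicer KO was higher by 0.20 ± 0.08 (adjusted p = 0.0383; 0.158 without control vehicle replicate 2; 0.08 and not called on library totals).

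Timm17b had 7.21, 7.43 and 8.06 CPM in Dicer KO LPS, 8.84, 9.20 and 8.19 CPM in control LPS, 10.2, 12.05 and 12.7 CPM in Dicer KO vehicle and 12.9, 11.5 and 12.8 CPM in control vehicle. LPS libraries were below vehicle libraries in both genotypes. The changes were -0.62 ± 0.11 in Dicer KO (edgeR adjusted p = 3.84e-05) and -0.50 ± 0.10 in control (0.000179). Timm50, the TIM23 receptor, had 15.3, 15.7 and 16.4 CPM in Dicer KO LPS, 15.9, 13.5 and 14.0 CPM in control LPS, 18.1, 19.5 and 20.1 CPM in Dicer KO vehicle and 15.2, 14.9 and 18.9 CPM in control vehicle. Its Dicer KO vehicle excess over control vehicle (0.23 ± 0.09, adjusted p = 0.0437) was called in 5 of 12 fits, with 0.194 without control vehicle replicate 2, and was 0.11 and not called on library totals. Timm50 was lower with LPS in Dicer KO (-0.28 ± 0.10, adjusted p = 0.0134; 0.0528 without Dicer KO vehicle replicate 3).

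In the import motor, Hspa9 had 70.2, 83.1 and 81.2 CPM in Dicer KO LPS, 111, 108 and 96.8 CPM in control LPS, 155, 170 and 161 CPM in Dicer KO vehicle and 148, 142 and 157 CPM in control vehicle. Dicer KO LPS was lowest, control LPS came next, and the vehicle groups overlapped above both. The change with LPS was -1.05 ± 0.07 in Dicer KO (edgeR adjusted p = 5.00e-11) and -0.50 ± 0.07 in control (1.4e-06), a difference of -0.55 ± 0.09 (0.000221). In LPS, Dicer KO was below control with a difference of -0.43 ± 0.07 (adjusted p = 3.49e-05), and each of these calls held in all 12 fits that left out 1 library.

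Grpel1, the nucleotide exchange factor of Hspa9, did not fall with it. Its levels were 43.4, 45.5 and 45.9 CPM in Dicer KO LPS, 40.4, 40.6 and 44.3 CPM in control LPS, 37.5, 39.5 and 41.3 CPM in Dicer KO vehicle and 29.7, 29.9 and 33.6 CPM in control vehicle. Control vehicle was below all other groups. In vehicle, Dicer KO was higher by 0.34 ± 0.06 (edgeR adjusted p = 0.000247, 0.22 on library totals). LPS raised Grpel1 by 0.19 ± 0.06 in Dicer KO and 0.43 ± 0.06 in control, which turn to -0.56 and -0.09 on library totals; the Dicer KO rise had an adjusted p of 0.0634 without replicate 1 of Dicer KO vehicle.

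Dnajc19, a J protein of the inner membrane, had 41.5, 43.5 and 41.4 CPM in Dicer KO LPS, 39.7, 33.5 and 35.6 CPM in control LPS, 33.7, 29.3 and 32.2 CPM in Dicer KO vehicle and 32.1, 31.6 and 30.3 CPM in control vehicle. Dicer KO LPS was highest and the vehicle groups overlapped. It was higher in Dicer KO LPS than in control LPS by 0.22 ± 0.07 (edgeR adjusted p = 0.0137; 0.102 without control LPS replicate 2), which turns to -0.14 on library totals. With LPS it was higher by 0.41 ± 0.07 in Dicer KO and 0.21 ± 0.07 in control (0.065 without control LPS replicate 1), which turn to -0.34 and -0.31 on library totals. Timm44, the scaffold that docks Hspa9 at the channel, had 36.2, 36.7 and 36.4 CPM in Dicer KO vehicle and 41.7, 41.0 and 38.9 CPM in control vehicle, without overlap (-0.15 ± 0.05, adjusted p = 0.0229, -0.28 on library totals). That call held in 7 of 12 fits, with 0.0874 without control vehicle replicate 1, and Timm44 averaged 38.8 ± 0.987 and 39.0 ± 1.36 CPM in Dicer KO LPS and control LPS (SD, n = 3 each). Pam16 stayed between 4.60 and 6.38 CPM in all 12 libraries.

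Both subunits of the matrix processing peptidase, which removes presequences, were higher with LPS, Pmpcb in both genotypes on both scalings, while Pmpca in Dicer KO turns to -0.16 on library totals. Pmpcb, the catalytic subunit (chr5:21737141-21757152, plus strand), had 81.4, 85.8 and 86.3 CPM in Dicer KO LPS, 62.2, 54.5 and 59.5 CPM in control LPS, 36.4, 38.2 and 36.2 CPM in Dicer KO vehicle and 37.5, 34.5 and 31.3 CPM in control vehicle. Dicer KO LPS was highest, control LPS was next and the vehicle groups overlapped. The rise with LPS was 2.29-fold in Dicer KO (1.19 ± 0.07, edgeR adjusted p = 4.76e-12) and 1.71-fold in control (0.77 ± 0.07, 3.92e-09), and it kept its direction and its call on library totals (0.45 and 0.25). The responses differed by 0.42 ± 0.09 (adjusted p = 0.00186), which was 0.20 and not called on library totals (0.0952). In LPS, Dicer KO exceeded control by 0.53 ± 0.07 (adjusted p = 1.74e-06), and library totals gave 0.17 (0.0258).

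Pmpca, the substrate-binding subunit, had 114, 120 and 124 CPM in Dicer KO LPS, 115, 115 and 109 CPM in control LPS, 77.9, 81.0 and 79.4 CPM in Dicer KO vehicle and 66.5, 67.7 and 70.9 CPM in control vehicle. The LPS groups overlapped above the vehicle groups, and Dicer KO vehicle was above control vehicle. It rose with LPS by 0.59 ± 0.05 in Dicer KO, which turns to -0.16 on library totals, and by 0.72 ± 0.05 in control (0.20 on library totals). In vehicle, Dicer KO was higher by 0.22 ± 0.05 (edgeR adjusted p = 0.00173; 0.09 and not called on library totals). Inpp5e exons on the opposite strand overlap 20.4% of the Pmpca exons. Per length, Pmpca averaged 27.9 and Pmpcb 16.4 CPM per kb in Dicer KO LPS, against 15.97 and 6.69 CPM per kb in control vehicle.

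Hspd1 (Hsp60) and Hspe1 (Hsp10), which together form the matrix folding chamber, lie head to head on chromosome 1. Hspd1 (chr1:55077835-55088243, minus strand) had 46.4, 60.5 and 60.6 CPM in Dicer KO LPS, 74.6, 70.0 and 66.7 CPM in control LPS, 74.6, 92.4 and 78.7 CPM in Dicer KO vehicle and 61.1, 60.4 and 78.9 CPM in control vehicle. Dicer KO LPS lay below control LPS and Dicer KO vehicle, and control LPS overlapped control vehicle. Its LPS change was -0.55 ± 0.13 in Dicer KO (edgeR adjusted p = 0.0021) and 0.08 ± 0.13 in control (0.597), which turns to -0.45 on library totals, a difference of -0.63 ± 0.18 (0.0207), which was 0.0505 without control vehicle replicate 1 and held in the other 11 fits. The Dicer KO LPS difference from control LPS, -0.33 ± 0.13, was just outside the threshold (adjusted p = 0.0518). The pseudogene Hspd1-ps3 matches 71.1% of the longest Hspd1 transcript and held 61 counts over the 12 libraries.

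Hspe1 (chr1:55088132-55091307, plus strand) had 19.6, 21.4 and 22.4 CPM in Dicer KO LPS, 26.7, 27.2 and 25.9 CPM in control LPS, 33.2, 31.8 and 31.0 CPM in Dicer KO vehicle and 27.2, 29.3 and 32.9 CPM in control vehicle. Dicer KO LPS was below every other group. Hspe1 changed with LPS by -0.60 ± 0.08 in Dicer KO (edgeR adjusted p = 1.05e-06) and -0.16 ± 0.07 in control (0.0489), and the responses differed by -0.43 ± 0.11 (0.00434). The control call held in 2 of 12 fits, with 0.266 without control vehicle replicate 3. In LPS, Dicer KO was below control with a difference of -0.33 ± 0.08 (adjusted p = 0.00189).

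**Figure D4:**
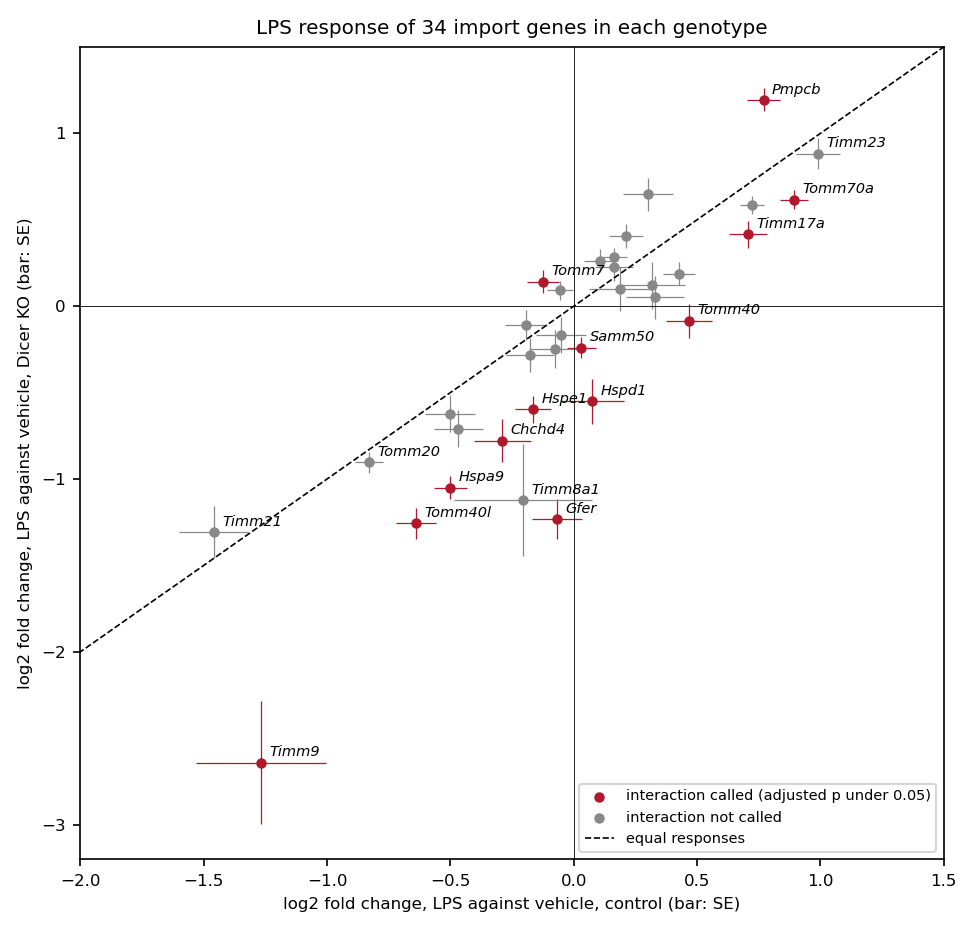
Log2 fold change of LPS against vehicle in Dicer KO (vertical) and in control (horizontal) for the 34 import genes on the TMM scale, with bars for the SE; the comparisons share no library. Gfer, Timm9, Hspd1, Tomm40l and Tomm40 lie below the line of equal response, with differences of -1.17, -1.37, -0.63, -0.62 and -0.55, and Pmpcb lies above it with 0.42, which is 0.20 and not called on library totals.

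Tomm34, a cytosolic co-chaperone that handles precursors before entry, averaged 31.7 ± 3.23 CPM in Dicer KO LPS, 33.4 ± 2.17 in control LPS, 27.1 ± 0.492 in Dicer KO vehicle and 29.8 ± 2.47 in control vehicle (SD, n = 3 each). It was called higher with LPS in Dicer KO (0.23 ± 0.08, edgeR adjusted p = 0.015; 0.0972 without Dicer KO LPS replicate 3), which turns to -0.52 on library totals. Timmdc1 averaged 8.27 CPM in Dicer KO LPS, 8.41 in control LPS, 9.27 in Dicer KO vehicle and 8.70 in control vehicle.

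Genes that work beside the import machinery were counted from named lists. The counts below are of called genes on the TMM scale, and the shares of all genes called were 80.1% for LPS against vehicle in Dicer KO, 79.1% in control, 55.8% for Dicer KO against control in LPS, 46.2% in vehicle and 33.7% for the difference of responses. Of 13 cytosolic chaperones that deliver precursors, 10 were higher and 1 lower with LPS in Dicer KO, 12 higher and 1 lower in control (80.1 and 79.1% of all genes called), 5 higher and 4 lower in Dicer KO LPS against control LPS, and 8 higher and 1 lower in Dicer KO vehicle against control vehicle. Their median log2 change with LPS was 0.53 in Dicer KO, which turns to -0.22 on library totals, and 0.91 in control (0.39 on library totals), beside -0.10 and -0.06 for all genes. The Hsp40 gene Dnaja2, which partners Hsp70, averaged 613 CPM in Dicer KO LPS, 346 in control LPS, 117 in Dicer KO vehicle and 91.6 in control vehicle. Its rise with LPS was 2.39 ± 0.06 in Dicer KO and 1.92 ± 0.06 in control, and its response was larger in Dicer KO by 0.48 ± 0.08 (edgeR adjusted p = 0.000142, 0.25 on library totals). Another Hsp40 gene, Dnaja1, averaged 416 CPM in Dicer KO LPS, 357 in control LPS, 103 in Dicer KO vehicle and 61.0 in control vehicle, and its response was smaller in Dicer KO (-0.53 ± 0.10, adjusted p = 0.00033). For the difference of responses, 1 of the 13 was higher and 6 were lower, with the smallest adjusted p (1.33e-05) for Ubqln2, a ubiquilin that binds membrane protein precursors (-0.71 ± 0.09).

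Of 13 mitochondrial proteases and processing genes tested, 2 were higher and 9 lower with LPS in Dicer KO, and 2 higher and 5 lower in control (80.1 and 79.1% of all genes called). Dicer KO LPS against control LPS gave 2 higher and 5 lower, Dicer KO vehicle against control vehicle 3 higher and 2 lower, and the difference of responses 0 higher and 5 lower. Their median change with LPS was -0.46 in Dicer KO and -0.14 in control, beside -0.10 and -0.06 for all genes, and -1.21 and -0.66 on library totals. The matrix protease gene Lonp1 averaged 29.2 CPM in Dicer KO LPS and 45.9 in control LPS (-0.65 ± 0.07, edgeR adjusted p = 1.22e-07), the inner membrane protease gene Afg3l2 39.2 and 61.5 CPM (-0.65 ± 0.08, 7.51e-07), and Clpp, the peptidase of another matrix protease, 3.76 and 6.27 CPM (-0.74 ± 0.14, 0.000222). The responses were lower in Dicer KO for Lonp1 (-0.50 ± 0.09), Clpp (-0.70 ± 0.18) and the rhomboid protease gene Parl (-0.52 ± 0.13). Yme1l1, an inner membrane protease known in human cells to degrade the TIM17A protein, averaged 304 CPM in Dicer KO LPS, 261 in control LPS, 109 in Dicer KO vehicle and 91.1 in control vehicle, and rose with LPS in both genotypes (1.47 ± 0.05 and 1.52 ± 0.05).

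Of 6 other matrix chaperones and co-chaperones, 1 was higher and 4 lower with LPS in Dicer KO, 1 higher and 3 lower in control (80.1 and 79.1% of all genes called), 1 higher and 3 lower in Dicer KO LPS against control LPS, and 1 higher and 1 lower in Dicer KO vehicle against control vehicle. Dnaja3, a J protein partner of Hspa9, averaged 22.0 CPM in Dicer KO LPS and 31.1 in control LPS (-0.50 ± 0.08, edgeR adjusted p = 2.83e-05), and was the 1 gene of this list with a called difference of responses (-0.63 ± 0.10, 0.000146). Hscb, a co-chaperone of iron-sulfur cluster assembly, had 2.46 CPM in Dicer KO LPS against 13.6 in Dicer KO vehicle, and 4.11 in control LPS against 18.8 in control vehicle (-2.47 ± 0.13 and -2.19 ± 0.11 with LPS).

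Of 15 membrane insertion and MICOS genes tested, 5 were higher and 3 lower with LPS in Dicer KO, and 4 higher and 5 lower in control (80.1 and 79.1% of all genes called). In Dicer KO against control, 3 were higher and 2 lower in LPS, and 5 higher and 2 lower in vehicle, and 1 response was higher in Dicer KO. Apool, a cristae organising subunit, averaged 51.2 CPM in Dicer KO LPS, 34.1 in control LPS, 12.9 in Dicer KO vehicle and 11.01 in control vehicle. Its responses of 1.99 ± 0.08 in Dicer KO and 1.63 ± 0.08 in control differed by 0.36 ± 0.12 (edgeR adjusted p = 0.0249, 0.13 on library totals). Cox18, an insertase for a cytochrome oxidase subunit, was higher with LPS by 1.45 ± 0.11 in Dicer KO and 1.87 ± 0.12 in control. Oxa1l, the general insertase of the inner membrane, changed with LPS by -0.55 ± 0.06 in Dicer KO and -0.49 ± 0.06 in control. In vehicle, Mtx3, a metaxin, averaged 7.71 CPM in Dicer KO and 12.6 CPM in control (-0.70 ± 0.10, adjusted p = 2.73e-05).

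A list of 13 genes held other small cysteine-motif proteins, among them known substrates of the Chchd4 relay. It also held the Chchd4 partner Aifm1, which is not of that class. Of the 13 genes, 2 were higher and 6 lower with LPS in Dicer KO, and 2 higher and 7 lower in control (80.1 and 79.1% of all genes called). Aifm1 was among the lower genes in both genotypes. Their counts were 1 higher and 1 lower in Dicer KO LPS against control LPS, 4 higher and 4 lower in Dicer KO vehicle against control vehicle, and 0 higher and 1 lower for the difference of responses. The last was Aifm1, which binds Chchd4 at the inner membrane, with 8.35 CPM in Dicer KO LPS, 9.18 in control LPS, 22.0 in Dicer KO vehicle and 18.8 in control vehicle (difference -0.36 ± 0.12, edgeR adjusted p = 0.026). Coa5, a cytochrome oxidase assembly factor, averaged 628 CPM in Dicer KO LPS, 400.0 in control LPS, 184 in Dicer KO vehicle and 113 in control vehicle.

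Of 11 stress transcription factors and mitophagy genes tested, 4 were higher and 6 lower with LPS in Dicer KO, 3 higher and 5 lower in control (80.1 and 79.1% of all genes called), 3 higher and 5 lower in Dicer KO LPS against control LPS, 2 higher and 3 lower in Dicer KO vehicle against control vehicle, and 2 higher and 4 lower for the difference of responses. Bnip3l, a mitophagy receptor, averaged 56.6 CPM in Dicer KO LPS and 91.8 in control LPS (-0.70 ± 0.06, edgeR adjusted p = 1.94e-08), and its response was lower in Dicer KO (-0.59 ± 0.08). Hsf1, the heat shock transcription factor, averaged 11.1 CPM in Dicer KO LPS and 16.7 in control LPS (-0.59 ± 0.10, edgeR adjusted p = 7.32e-05). Atf5, a factor of the mitochondrial stress response, averaged 21.1 CPM in Dicer KO LPS and 29.3 in control LPS (-0.47 ± 0.08, 5.72e-05). Pink1, a kinase normally imported and degraded in healthy mitochondria, averaged 24.5 CPM in Dicer KO LPS against 72.5 in Dicer KO vehicle and 29.6 in control LPS against 99.1 in control vehicle. Cebpb, an inflammatory transcription factor, averaged 213 CPM in Dicer KO LPS against 20.8 in Dicer KO vehicle and 199.97 in control LPS against 25.7 in control vehicle. In vehicle, Ddit3, a stress factor also called Chop, averaged 42.6 CPM in Dicer KO and 22.5 CPM in control (0.92 ± 0.07, edgeR adjusted p = 1.39e-08).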

How the data were processed

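Polyadenylated RNA was sequenced from 12 macrophage libraries with a stranded kit, per the labels' protocols. Each file deposited by the authors holds raw read counts per Ensembl gene for 1 library; STAR 2.5, DESeq2 (no version) and the builds mm10 and GRCm38.p5 are listed per the submitters' processing notes. Which program counted the reads, with what strand setting and annotation, is not given in the sources used here. Rows that name no gene were left out of library sizes; they held 45.8 to 46.8% (no feature), 0.626 to 0.768% (ambiguous) and 9.85 to 11.6% (not unique) of reads, and genes 41.7 to 43.3%.

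Symbols and coordinates came from GENCODE M21, which matched 45143 of 46078 identifiers; the rest held 0.141% of counts. The model was fitted in edgeR 4.0.16 (R 4.3.3) with 13837 genes left by filterByExpr, TMM scaling, and a robust quasi-likelihood fit to all 12 libraries, 1 mean per group. Tests were two-sided, with Benjamini-Hochberg adjustment over all genes within each comparison and a call at an adjusted p under 0.05. Fold changes are log2 with the SE of the model, and levels are CPM. A chi-square comparison of replicate counts gave 1.30 to 13.2 per degree of freedom, with the lowest value for replicates 2 and 3 of Dicer KO LPS. Such a comparison cannot tell whether 2 libraries share a culture or RNA. All 12 libraries were treated as separate.

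Members and lists were chosen with earlier results of these data known. The text names, in each pairwise comparison, up to 6 called members per direction with the smallest adjusted p, every member called for the difference of responses, paralog pairs, and up to 3 called genes of each list; other members are summarised. Promoters are RefSeq windows on GRCm38.p6; blastn 2.17.0 (identity of at least 95% over at least 100 bases) found similar transcripts. Alternatives were DESeq2 1.42.0, its size factors in edgeR, library totals in place of TMM, other filters, only the groups compared, a replicate block, and leaving out libraries.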

Additional observations from a re-analysis of the deposited data

Results flagged for a closer look

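Each of the following 13 members had an LPS response that differed between the genotypes by the edgeR test of the difference itself (adjusted p under 0.05), with the response in Dicer KO given before that in control. The largest was Timm9, with responses of -2.64 in Dicer KO and -1.27 in control (difference -1.37 on the log2 scale). Gfer followed with -1.23 in Dicer KO and -0.07 in control (difference -1.17). Hspd1 had -0.55 in Dicer KO and 0.08 in control (difference -0.63), where 0.08 turns to -0.45 on library totals, and Hspe1 had -0.60 in Dicer KO and -0.16 in control (difference -0.43). Tomm40l had -1.26 in Dicer KO and -0.64 in control (difference -0.62), and Tomm40 had -0.08 in Dicer KO and 0.47 in control (difference -0.55), where 0.47 turns to -0.05 on library totals. Hspa9 had -1.05 in Dicer KO and -0.50 in control (difference -0.55), and Chchd4 had -0.78 in Dicer KO and -0.29 in control (difference -0.49).

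Members with smaller differences were Timm17a (0.42 in Dicer KO, 0.71 in control, difference -0.29), Tomm70a (0.62 in Dicer KO, 0.89 in control, difference -0.27) and Samm50 (-0.24 in Dicer KO, 0.03 in control, difference -0.27). On library totals the control value of Samm50 turns to -0.49. In Dicer KO the values of Timm17a and Tomm70a turn to -0.33 and -0.13 on library totals. Positive differences were seen for Tomm7 (0.14 in Dicer KO, -0.12 in control, difference 0.27) and Pmpcb (1.19 in Dicer KO, 0.77 in control, difference 0.42), and neither was called on library totals, where the Dicer KO value of Tomm7 turns to -0.61. Of all genes tested, 33.7% had a called difference. Among the 12 fits that each left out 1 library, the called difference held in 4 for Timm9, Chchd4 and Tomm7. It held in 3 for Timm17a, in 11 for Hspd1 and Samm50, and in all 12 for the other 7 members.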

How the results depend on the processing

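Scaling to library totals moved the results most. It gave 2 members higher and 7 lower for Dicer KO against control in vehicle, 29 called (2 higher, 27 lower) in LPS, 1 higher and 31 lower for LPS against vehicle in Dicer KO, 5 higher and 25 lower in control, and 0 higher and 19 lower for the difference of responses. It reversed 20 of 84 called member values. For Dicer KO against control in LPS these were Tomm22 (-0.20), Tomm70a (-0.032), Timm29 (-0.044) and Dnajc19 (-0.14). For LPS against vehicle in Dicer KO they were Tomm22 (-0.46), Tomm70a (-0.13), Timm22 (-0.10), Timm29 (-0.49), Tomm34 (-0.52), Dnajc19 (-0.34), Grpel1 (-0.56), Pmpca (-0.16) and Timm17a (-0.33). In control they were Tomm22 (-0.36), Tomm40 (-0.054), Timm22 (-0.22), Dnajc19 (-0.31), Grpel1 (-0.093), Timm10 (-0.20) and Timm10b (-0.19). The scaling itself shifts all genes downward in each of these comparisons.

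No other alternative reversed a value. DESeq2 called 1 member lower for Dicer KO against control in vehicle and lost 13 of 84 member calls, DESeq2 size factors in edgeR lost 7, no filter on low counts lost 8, a filter of 10 or more counts in 3 or more libraries lost 1, and fits of only the groups compared lost 3 of 71. Leaving out both libraries that stand apart lost 4 of 84. Among fits that each left out 1 library, 99 of 1008 member values lost their call. Members called for Dicer KO against control in vehicle then ranged from 5 to 13 (4 to 11 higher, 1 to 2 lower) and in LPS from 12 to 16, for LPS against vehicle from 24 to 27 in Dicer KO and 18 to 22 in control, and for the difference of responses from 8 to 14 (1 to 4 higher, 6 to 12 lower).

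With replicate number as a block, members called were 8 for Dicer KO against control in vehicle, 16 in LPS, 26 for LPS against vehicle in Dicer KO, 21 in control and 13 for the difference of responses, and 2 of 84 member calls were lost. Libraries with the same number did not pair: correlations of their deviations ranged from -0.35 to 0.28, and the own number was the best match in 13 of 36 cases. Depth limits Timm9 and Timm8a1, which had 1 to 13 counts per library in Dicer KO LPS.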
